A study of Mus musculus with 16 samples.

Results

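Mature adipocytes and preadipocytes of control-reared mice were compared over the whole transcriptome. The comparison used 7 of the 16 libraries of the series, taken by their labels: 3 libraries of mature adipocytes and 4 of preadipocytes. All 7 came from the gonadal white fat of female mice of the inbred strain C57BL/6 that had stayed undisturbed with the dam until weaning on postnatal day 21 and were given a high-fat diet. The labels name no transgene or deletion and give no age at collection. In the study such control mice stand beside mice parted from the dam daily on postnatal days 2 to 16 and weaned on day 17, and high-fat beside low-fat feeding. The stress-reared high-fat mice gave 3 adipocyte and 4 preadipocyte libraries, which were used here only to repeat the comparison. Although the series title speaks of single cells, each library is 1 column of read counts per gene, so these are bulk samples.

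Per the labels, fat was digested with collagenase, spinning and filtering separated mature cells from the stroma, and magnetic sorting then enriched cells of the adipocyte lineage. The sources used here do not name the antibodies. Separate animals, or pools of animals, are not stated for the libraries of a group. The p-values therefore cover the spread among these samples alone, and that spread may be technical. In bulk samples, fewer cells of a type and less RNA per cell cannot be told apart.

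White fat stores energy as triglyceride in a single large droplet that fills each mature adipocyte. New adipocytes arise from preadipocytes, fibroblast-like progenitors in the stroma that carry the receptor Pdgfra, build extracellular matrix and differentiate under the control of the nuclear receptor Pparg and the C/EBP factors. The mature cell takes up and makes fatty acids, releases them on hormonal demand, and secretes hormones such as leptin and adiponectin.

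The 7 libraries held 14182130 to 21995111 counts each. Adipocyte libraries held 15344 to 20616 detected genes and preadipocyte libraries 24039 to 26053. Adipocyte library 3 was the smallest. The ratio of genes at 1 to 5 counts to genes at 6 to 15 counts, a measure of library complexity, was 1.15, 1.84 and 0.637 in adipocyte libraries 1 to 3 and 1.92 to 2.23 in preadipocytes. Preadipocyte libraries 1 and 3 differed at 21.4% of genes, against 49.3% to 79.9% in the other 17 pairs of libraries within a group, and were summed and counted as 1 sample. Each group therefore has n = 3. Levels below are CPM (counts scaled to the library total), also scaled for library composition, and fold changes are log2 values of adipocytes over preadipocytes, with their standard error (SE).

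The cell types differed over a large part of the transcriptome. Of 54532 genes in the table, 16315 had enough counts to be tested, and 3023 of these (18.5%) were higher and 2975 (18.2%) lower in adipocytes at an adjusted p below 0.05, which is 36.8% in all. Counts of list members below stand against these shares of 18.5% and 18.2% over all genes tested. The groups did not overlap for 23.8% of tested genes with adipocytes above and for 31.7% with adipocytes below. At least 8-fold differences were found for 617 genes called higher (3.78%) and 1214 called lower (7.44%). All 194 tested genes with no count in any adipocyte library were called lower, and all 7 with none in any preadipocyte library were called higher. They entered the test only through the group where they had counts, so these calls are no separate result. All of them are among the genes of at least 8-fold difference. Genes of at least 8-fold higher expression made up 21.9%, 11.9% and 16.9% of the counts in adipocyte libraries 1 to 3 and 0.743% to 0.956% in preadipocyte libraries. Without preadipocyte library 2 the calls fell to 1804 higher and 1442 lower, without preadipocyte library 4 to 1902 and 1776, and without adipocyte library 2 they stood at 3397 and 4540. Longer genes lay lower: over 4 length classes of near-equal size, from the shortest gene models to the longest, the median log2 fold change was 0.27, 0.10, -0.20 and -0.59. The part of gene length in the results was not tested.

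**Figure D1:**
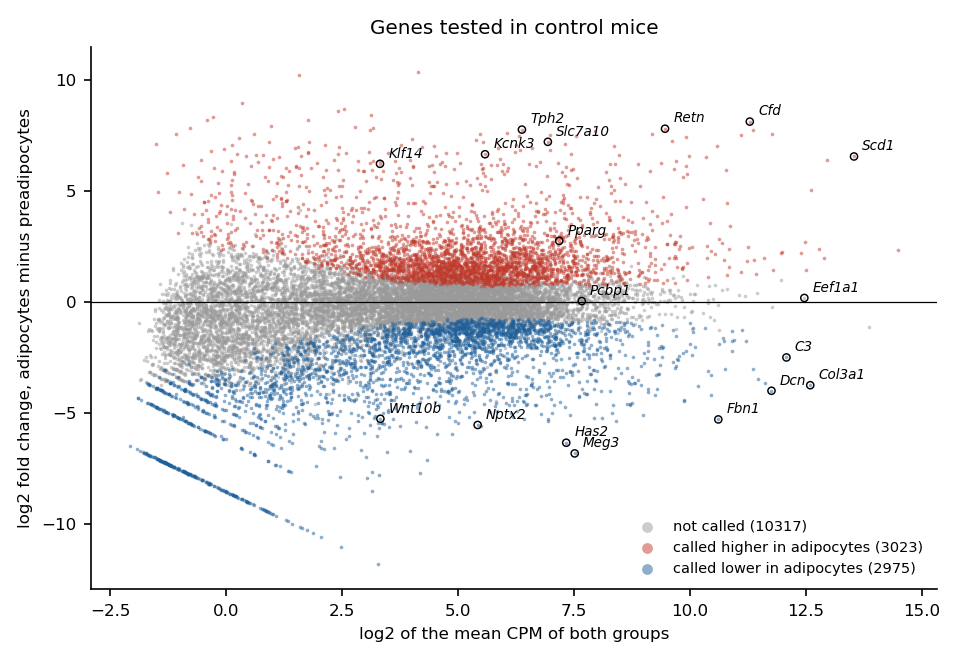
Log2 fold change of adipocytes over preadipocytes against the log2 mean CPM of both groups, for each of 16315 genes tested, with 3023 called higher in red, 2975 called lower in blue and the rest in grey. The diagonal rows of blue points at the lower left are genes with no count or few counts in adipocytes, whose fitted fold depends on the prior count; Cfd and Meg3 lie near the ends of the range among well-expressed genes.

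The 20 largest rises included secreted proteins such as Cfd, Retn and Adipoq and the lipid droplet protein Cidec, beside enzymes and carriers such as Gpd1 and Slc7a10. Cfd, which encodes the protease adipsin (complement factor D; ENSMUSG00000061780, GRCm38 chromosome 10, 79890853 to 79892655, plus strand), stood at 7335, 949.8 and 6746 CPM in adipocyte libraries 1 to 3 and at 18.7, 23.7, 18.3 and 14.5 CPM in preadipocyte libraries 1 to 4. Non-overlapping groups were a condition for the 20 largest rises and falls, and adipocyte library 2 was the lowest adipocyte library for Cfd. The log2 fold change of Cfd was 8.11 ± 0.87 (adjusted p = 0.000395), or 277-fold. Retn, the hormone resistin, stood at 2215, 472 and 1541 CPM in adipocytes and at 5.54 to 7.89 CPM in preadipocytes, with the same order of the adipocyte libraries. Its mean was 1410 ± 879 CPM (SD, n = 3) against 6.63 ± 0.946 CPM (SD, n = 3), 221-fold.

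Other secreted products followed. Adipoq (adiponectin) stood at 6851, 1812 and 4476 CPM in adipocyte libraries 1 to 3 and at 20.4 to 28.7 CPM in preadipocytes, 183-fold higher. Lep (leptin) stood at 5440, 1753 and 1934 CPM against 6.60 to 35.1 CPM, 130.1-fold higher. Hp (haptoglobin) and Orm1 (orosomucoid), plasma proteins of the acute phase, rose by log2 fold changes of 7.73 ± 0.53 and 7.46 ± 0.86, and the Wnt antagonist Sfrp5 by 7.70 ± 0.73. Of 37 genes on a list of secreted adipocyte products, 23 were called higher and 4 lower, against 18.5% and 18.2% of all genes, with a median of 2.29 beside -0.17 over all genes. The 4 called lower were the complement component C3 (-2.51 ± 0.31), the cytokine Il6 (-3.58 ± 0.39), the chemokine Ccl2 (-1.90 ± 0.43) and Itih5 (-1.12), which was named after its value was seen. C3 was among the 10 most abundant protein-coding transcripts of preadipocytes, at 6231 to 9136 CPM.

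Among the 20 largest rises were genes better known from other tissues. Tph2, the tryptophan hydroxylase that starts serotonin synthesis in neurons, stood at 278, 123 and 98.3 CPM in adipocytes and at 0.044 to 1.60 CPM in preadipocytes (7.75 ± 0.92, adjusted p = 0.000595). Lctl, a lactase-like protein of the Klotho family, stood at 119, 68.1 and 80.9 CPM against 0.044 to 0.739 CPM, 185-fold higher. The groups did not overlap for either gene, as the choice of the 20 largest rises required. Cdsn, the skin protein corneodesmosin, rose by 7.05 ± 0.52, Sncg, gamma-synuclein, by 7.43 ± 0.87, and Crtac1, a cartilage matrix protein, by 7.26 ± 0.60. Cyp2e1, a cytochrome P450 known from liver, stood at 1411, 390.3 and 1682 CPM in adipocytes and 4.62 to 8.62 CPM in preadipocytes.

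**Figure D2:**
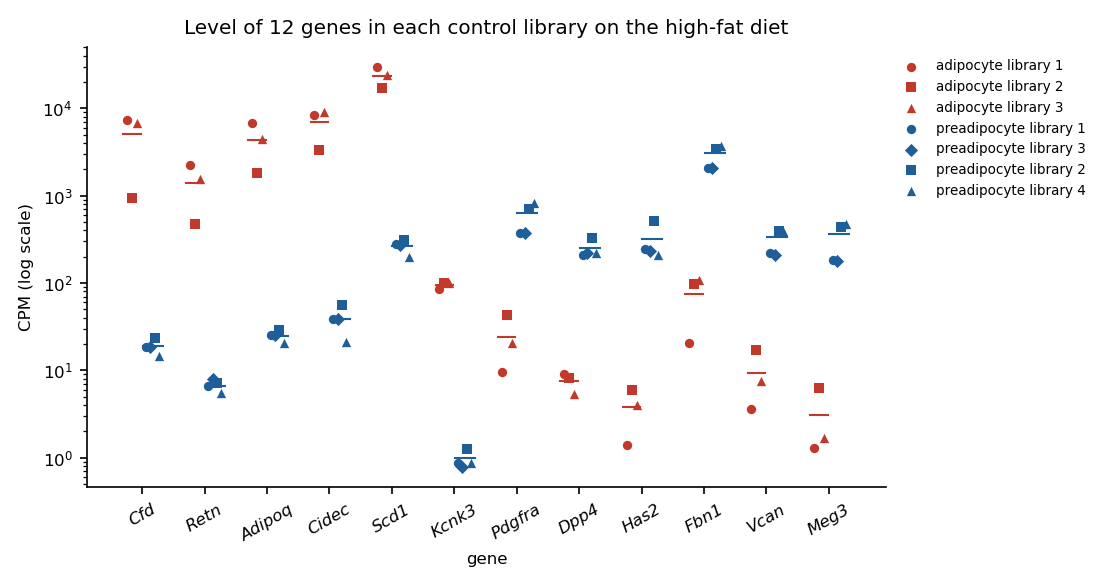
CPM on a log scale of 12 genes in each control library, with adipocyte libraries in red, preadipocyte libraries in blue, and a bar at the mean of 3 samples per group (the near-identical preadipocyte libraries 1 and 3 averaged first). The groups do not overlap for any of the 12 genes; adipocyte library 2 is the lowest adipocyte library for Cfd (949.8 CPM) and the highest for Meg3 (6.30 CPM).

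In the opposite direction, the 20 largest falls included matrix genes such as Has2, Fbn1 and Vcan and the imprinted non-coding RNAs Meg3 and Rian, beside membrane and signalling proteins such as Ildr2 and Sfrp4. Has2, the hyaluronan synthase of the plasma membrane, stood at 1.40, 6.03 and 4.07 CPM in adipocytes and at 242, 514, 233 and 207 CPM in preadipocyte libraries 1 to 4 (-6.35 ± 0.65, adjusted p = 0.000332). Its groups did not overlap, as the choice of the 20 largest falls required. The long non-coding RNA Meg3 (chromosome 12, 109541001 to 109571726, plus strand) stood at 1.29, 6.30 and 1.68 CPM against 185, 433, 179 and 477 CPM (-6.83 ± 0.74, adjusted p = 0.000404). Rian (109603940 to 109661716) and Mirg (109729764 to 109749460) lie downstream on the same strand of chromosome 12, and these 3 RNAs are expressed from the maternal chromosome. Rian fell by 5.35 ± 0.47 on the log2 scale, from 241 ± 104 to 5.71 ± 1.78 CPM. Mirg stood at 10.8 to 34.0 CPM in preadipocytes and was detected with 4 counts in adipocyte library 2 and none in adipocyte libraries 1 and 3. Dlk1, the preadipocyte factor expressed from the paternal copy of that cluster, was low in both cell types, at 0.538 to 1.60 CPM and 3.47 to 5.38 CPM (-2.03 ± 0.69, adjusted p = 0.0460), and its call was lost on leaving out adipocyte library 1 or 2, preadipocyte library 2 or 4, or the near-identical pair (adjusted p 0.0652 to 0.162).

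Long non-coding RNAs were called higher less often than genes at large: of 1118 tested, 105 were higher (9.39%, against 18.5% of all genes) and 182 lower (16.3%, against 18.2%), with a median of -0.88 beside -0.17. Miat stood at 5.50 to 8.24 CPM in preadipocytes and had no count in any adipocyte library. Against a floor of 3 counts over the adipocyte libraries it was at least 137-fold lower. In the other direction, B430119L08Rik stood at 6.34, 1.78 and 9.81 CPM in adipocytes with no count in preadipocytes, at least 170.1-fold higher against the same floor over that group. Other long non-coding rises were Gm454 (7.81 ± 0.62), Gm13709 (6.98 ± 1.30), 1700047G03Rik (6.91 ± 0.67) and Gm34973 (6.71 ± 1.09), and 1700047G03Rik stood at 155, 66.1 and 123 CPM. Counting across overlapping and antisense genes is not described in the sources used here, so values of such RNAs may hold reads of neighbouring genes.

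Promoters of the strongly changed genes held fewer CpG dinucleotides than promoters at large. RefSeq windows of 300 bases (250 before to 50 after the start site, GRCm38.p6) were matched by symbol for 11778 of the 16315 tested genes, 11177 of them protein-coding. The median window held 20 CpG over all of these, 13 over 365 promoters of genes called at least 8-fold higher, and 11 over 622 of genes called at least 8-fold lower. Genes called with smaller folds had medians of 20 (higher) and 23 (lower). A TATAAA motif on the sense strand, with its first base 45 to 15 bases before the start, was present in 1.57% of all promoters, 2.74% of those of the strongly higher and 4.02% of those of the strongly lower genes. The direct repeat of the PPARG and RXR complex, sought on both strands as AGGNCA given 2 times with 1 base between, was in 28 of the 11177 promoters, 2 of the 365 and 2 of the 622. A core of the C/EBP site, TTNCNNAA on both strands, was in 31.8%, 35.3% and 34.2%. These letter matches are descriptions and not binding sites, and no p-value was computed for them.

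Of the windows below, 2 belong to genes among the largest rises and 2 to genes among the largest falls. They do not show the range of CpG content in either direction. Among the matched rises Slc7a10 had 24 CpG and Crtac1 41, and among the matched falls Rian had 0 and Cilp 4. The lower counts of the 2 rises shown do not stand for their class, since the class medians were 13 (strongly higher) and 11 (strongly lower). CpG dinucleotides and a TATAAA motif in the stated position are in capitals. Adipoq (chr16:23146286-23146585, plus strand) has no CpG, and Cyp2e1 (chr7:140763569-140763868, plus strand) has 4 and a TATAAA that starts 31 bases before the start site. Meg3 (chr12:109540746-109541045, plus strand) has 13 CpG and a TATAAA that starts 25 bases before. Ildr2 (chr1:166253889-166254188, plus strand), a membrane protein gene at 73.0 to 109.7 CPM in preadipocytes and 0.786 to 3.61 CPM in adipocytes, has 32 CpG and no TATAAA in that position.
Adipoq: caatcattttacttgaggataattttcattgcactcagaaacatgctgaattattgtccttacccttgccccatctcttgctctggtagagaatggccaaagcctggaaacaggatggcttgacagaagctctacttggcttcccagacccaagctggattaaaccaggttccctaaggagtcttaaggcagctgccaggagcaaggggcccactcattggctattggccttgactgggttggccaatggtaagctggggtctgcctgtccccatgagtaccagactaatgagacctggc
Cyp2e1: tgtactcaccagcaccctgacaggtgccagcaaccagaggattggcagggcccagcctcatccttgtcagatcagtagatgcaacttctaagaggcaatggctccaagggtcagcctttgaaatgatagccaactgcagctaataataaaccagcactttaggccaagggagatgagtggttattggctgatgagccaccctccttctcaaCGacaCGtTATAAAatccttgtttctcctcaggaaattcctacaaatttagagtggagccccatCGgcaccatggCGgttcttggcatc
Meg3: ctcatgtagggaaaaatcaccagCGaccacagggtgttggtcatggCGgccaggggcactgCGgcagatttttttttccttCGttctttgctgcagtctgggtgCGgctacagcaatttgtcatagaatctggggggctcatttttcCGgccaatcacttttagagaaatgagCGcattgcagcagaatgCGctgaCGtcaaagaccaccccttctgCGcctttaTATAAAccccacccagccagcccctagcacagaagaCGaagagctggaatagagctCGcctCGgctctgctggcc
Ildr2: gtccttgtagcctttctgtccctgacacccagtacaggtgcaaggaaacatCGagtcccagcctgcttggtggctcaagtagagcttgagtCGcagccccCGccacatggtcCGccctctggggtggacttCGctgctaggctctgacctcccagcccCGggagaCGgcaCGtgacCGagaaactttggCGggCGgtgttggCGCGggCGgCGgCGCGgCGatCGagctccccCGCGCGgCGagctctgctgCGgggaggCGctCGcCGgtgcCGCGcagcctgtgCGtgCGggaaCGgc

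Genes of the fat store were higher in adipocytes. All 20 tested genes on a list of mature adipocyte identity were called higher, with a median of 6.15. Of 19 droplet genes 14 were higher and none lower (median 3.04), with 1 called lower without adipocyte library 2. Cidec, which fuses droplets into the single large one, stood at 8460, 3342 and 9003 CPM against 20.9 to 56.4 CPM (7.54 ± 0.65). Plin1, the perilipin that guards the droplet surface, stood at 2176, 1229 and 2581 CPM against 15.3 to 33.6 CPM (6.54 ± 0.52), and Plin4 and Pnpla3 rose by 6.12 ± 0.43 and 6.94 ± 0.43. Each of these genes kept every adipocyte library above every preadipocyte library, which for Cidec was a condition of the 20 largest rises. The 5 droplet genes not called, named after their values were seen, were Fitm1 (-0.07), Hilpda (0.82), Hsd17b11 (-0.11), Hsd17b13 (-2.86) and Rab18 (-0.53).

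Triglyceride assembly and fatty acid synthesis rose with the droplet. Of 29 genes of triglyceride synthesis and fatty acid uptake 23 were higher and none lower (median 2.84), although 3 were called lower by DESeq2, with upper quartile scaling, and without adipocyte library 2. Gpd1, which makes glycerol 3-phosphate, stood at 1694, 1965 and 1020 CPM against 8.66 to 13.2 CPM (7.22 ± 0.43, adjusted p = 7.97e-05). Dgat2, which adds the last acyl chain, rose by 6.51 ± 0.53, and the monoacylglycerol route rose too, with Mogat2 at 6.36 ± 0.96. Of 16 fatty acid synthesis genes 11 were higher and 1 lower (median 2.67). The desaturase Scd1 stood at 29643, 17090 and 24148 CPM against 198 to 314 CPM and, per transcript length, was the third most abundant protein-coding gene of adipocytes at 4985 FPKM. Thrsp, a nuclear activator of lipogenesis, rose by 6.99 ± 0.61, and Me1 and Slc25a1, which supply reducing power and citrate, by 4.49 ± 0.41 and 4.53 ± 0.30. The exception was the desaturase Fads2, at 5.11 to 12.7 CPM in adipocytes and 31.9 to 46.3 CPM in preadipocytes (-1.96 ± 0.40, adjusted p = 0.00632).

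Lipolysis genes rose together with the receptors that stimulate and restrain it. Of 26 genes 18 were higher and 1 lower (median 2.36). Lipe, hormone-sensitive lipase, stood at 1916, 921 and 1962 CPM against 23.6 to 31.0 CPM (5.98 ± 0.44). The stimulating receptor Adrb3, for noradrenaline, stood at 156, 114 and 377 CPM against 1.84 to 3.56 CPM (6.29 ± 0.59). Restraining receptors were as far apart: Adora1, for adenosine, rose by 6.17 ± 0.51 and Ffar2, for short-chain fatty acids, by 6.01 ± 0.59. The beta-adrenergic receptor Adrb1, named after its value was seen, was not called (0.03 ± 0.83, adjusted p = 0.979). Npr1, the natriuretic peptide receptor that raises cyclic GMP, was the 1 gene called lower (-1.75 ± 0.53, adjusted p = 0.0310), and its call was lost without adipocyte library 2 or preadipocyte library 2 or 4 (adjusted p = 0.0752, 0.0898 and 0.0827).

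Genes of the mitochondrion rose in nearly all members tested. All 34 oxidative phosphorylation genes were called higher (median 2.47), as were 17 of 18 genes of the tricarboxylic acid cycle (median 2.11) and 17 of 18 of fatty acid oxidation (median 2.97). The exceptions, named after their values were seen, were Suclg2 (0.41) and Cpt1a (-0.19), and 1 gene of fatty acid oxidation was called lower without adipocyte library 2. Cyc1, the cytochrome of complex III, stood at 353, 256 and 279 CPM against 33.9 to 42.5 CPM (3.0 ± 0.29). Cpt2, which reforms acyl-CoA inside the mitochondrion, rose by 4.03 ± 0.30, and Acads, the short-chain dehydrogenase, by 4.21 ± 0.34. Each adipocyte library lay above each preadipocyte library for these 3 genes. The ribosome of the mitochondrion followed, with 72 of 77 protein genes higher and none lower (median 1.97), led by Mrps6 at 3.59 ± 0.48.

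Of the 13 protein genes of the mitochondrial genome 12 were higher (median 2.50), with mt-Nd2 at 7868, 9697 and 12243 CPM against 1297 to 1888 CPM. The share of counts on mitochondrial protein genes was 5.59% to 10.2% in adipocyte and 1.80% to 2.15% in preadipocyte libraries. Cytosolic ribosomal protein genes held few calls: of 78 genes 3 were called higher and none lower, with a median of 0.31 that stayed between 0.21 and 0.31 under the other scalings. The count of 3 was not stable, since 15 were called without adipocyte library 2 and 1 without adipocyte library 3, preadipocyte library 2 or 4, or the near-identical pair.

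Peroxisomes, branched-chain amino acid breakdown and glycolysis were also higher. Of 30 peroxisomal genes 22 were higher and none lower (median 1.78). Pex16, which places proteins in the peroxisomal membrane, stood at 225, 119 and 196 CPM against 7.41 to 9.50 CPM (4.48 ± 0.36), and the fatty acid importer Abcd2 rose by 4.43 ± 0.48. Of 22 genes that break down leucine, isoleucine and valine 19 were higher and none lower (median 2.53), with the transaminase Bcat2 at 3.56 ± 0.45 and Hibch at 3.72 ± 0.58. Glycolysis had 14 of 22 higher (median 1.55), including Tpi1 (3.53 ± 0.34) and the regulator Pfkfb1 (4.9 ± 0.39). The hexokinase Hk2 was called lower (-1.38 ± 0.41, adjusted p = 0.0276), and lost that call without any 1 of the adipocyte libraries or without preadipocyte library 2 (adjusted p 0.0562 to 0.126). Of 34 antioxidant genes 17 were higher (50%, against 18.5% of all genes) and 3 lower (8.82%, against 18.2%), with a median of 0.81. Among them were catalase, Cat, at 3.51 ± 0.37, the lipid peroxidase Gpx4 at 3.64 ± 0.47, and Gpx8 of the endoplasmic reticulum at -2.39 ± 0.31. Without preadipocyte library 4, 11 of them were called higher.

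Genes of insulin action went both ways. Of 26 tested, 7 were higher and 6 lower, against 18.5% and 18.2% of all genes, with a median of -0.20. Slc2a4, the insulin-regulated glucose transporter GLUT4, stood at 165, 135 and 253 CPM against 1.98 to 3.57 CPM (6.18 ± 0.41), and Tusc5, which helps its return to storage vesicles, rose by 6.21 ± 0.44. Of the insulin receptor substrates, Irs3 rose, from 0.657 to 2.11 CPM in preadipocytes to 101, 48.8 and 121 CPM in adipocytes (5.98 ± 0.53). Irs1 was called lower at -1.82 ± 0.58 (adjusted p = 0.0359), with overlapping groups at 3.20 to 13 CPM and 12.7 to 45.6 CPM, and without adipocyte library 1 or 2 or preadipocyte library 2 or 4 the adjusted p was 0.0835 to 0.138. The IGF-1 receptor, Igf1r, fell to 4.32, 18.4 and 15.6 CPM from 59.2 to 74.6 CPM (-2.31 ± 0.49). The insulin receptor itself, Insr, added after its value was seen, was at 65.0 CPM in adipocytes and 62.3 CPM in preadipocytes on average (0.10 ± 0.28, adjusted p = 0.794).

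**Figure D3:**
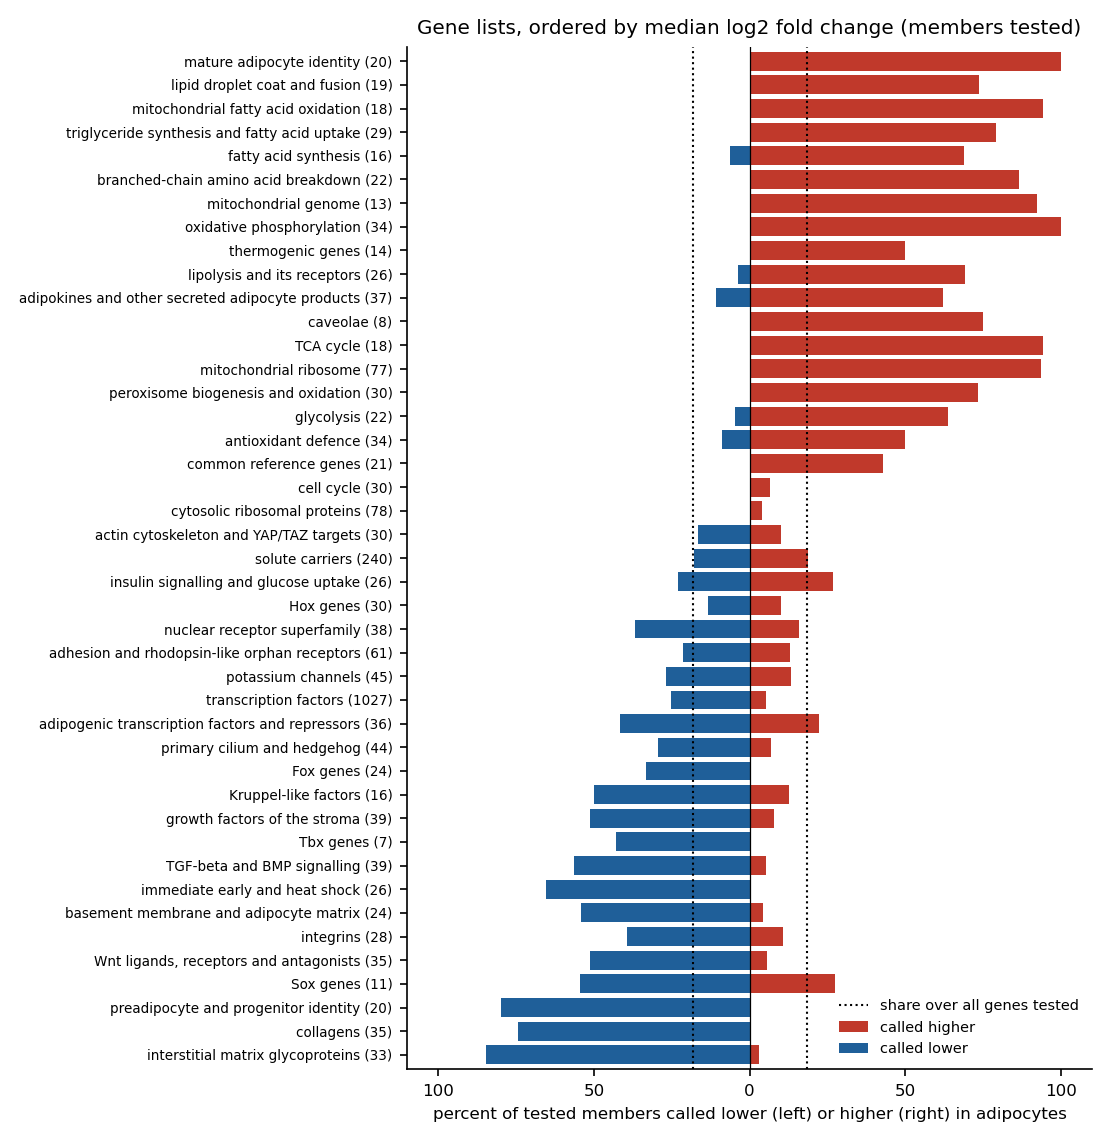
Percent of tested members of each gene list called lower (blue, left) and higher (red, right) in adipocytes, ordered by median log2 fold change, with the number tested in brackets and dotted lines at the shares over all genes (18.2% lower, 18.5% higher). Lists of fat storage and mitochondria lie to the right, up to 34 of 34 for oxidative phosphorylation, and lists of matrix and morphogens to the left, up to 28 of 33 for interstitial matrix.

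Of the broad families of membrane proteins, solute carriers had shares of calls close to those of all genes, with 45 of 240 higher and 43 lower (median -0.16). Single members stood far apart: Slc7a10, a carrier of small neutral amino acids such as serine, was at 307, 124 and 302 CPM against 1.5 to 1.93 CPM (7.20 ± 0.50), and Slc22a3, which clears monoamines, rose by 6.26 ± 0.37. Slc5a7, the choline carrier of cholinergic neurons, stood at 28.4, 41.5 and 26.8 CPM against 0.088 to 0.959 CPM (6.05 ± 0.65), while Slc6a2, the noradrenaline transporter, fell by 4.29 ± 0.97 on the log2 scale. Of 45 potassium channel genes 6 were higher (13.3%) and 12 lower (26.7%), against 18.5% and 18.2% of all genes (median -0.65). Kcnk3, a leak channel, stood at 86.0, 100.2 and 99 CPM in adipocytes and 0.780 to 1.25 CPM in preadipocytes (6.64 ± 0.34, adjusted p = 7.97e-05). Kcnt2 and Kcnn3 fell by 5.63 ± 0.86 and 5.48 ± 0.89. Without preadipocyte library 2 the calls lower were 19 solute carriers and 4 potassium channels, without the near-identical pair 28 and 7, without preadipocyte library 4 the channels stood at 7, without adipocyte library 2 the carriers stood at 67, and without adipocyte library 1 the channels called higher were 10. Caveola genes, which shape the pits of the adipocyte membrane, were higher in 6 of 8, with Cav1 at 3040, 1936 and 2680 CPM against 149 to 303 CPM (3.53 ± 0.39).

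Transcription factors were lower more often than higher. Of 1027 genes that the deposited table assigns to a factor family, 55 were called higher (5.36%) and 261 lower (25.4%), with a median of -0.71. Over all genes these shares were 18.5% and 18.2%. Without preadipocyte library 2 these counts were 23 and 124, without preadipocyte library 4 25 and 141, and without the near-identical pair 33 factors were called higher. The 2 master factors of the fat cell were among the exceptions. Pparg stood at 312, 169.9 and 273 CPM against 30 to 56.5 CPM (2.74 ± 0.39, adjusted p = 0.00131), and Cebpa at 1057, 726 and 1071 CPM against 57.2 to 79.2 CPM (3.78 ± 0.34). Of 38 nuclear receptors 6 were higher (15.8%, near the 18.5% of all genes) and 14 lower (36.8%, against 18.2%). Rxrg, a partner of Pparg, had the largest rise among them, at 32.0, 14.6 and 27.2 CPM against 0.123 to 0.463 CPM (6.33 ± 0.55), and Nr1h3, the oxysterol receptor LXR alpha, rose by 2.78 ± 0.38. The immediate early receptors Nr4a2 and Nr4a3 fell by 3.12 ± 0.41 and 3.51 ± 0.37. Leaving out preadipocyte library 2 gave 9 nuclear receptors lower.

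Among Kruppel-like factors 2 of 16 were higher and 8 lower. Klf14, an imprinted gene linked to fat storage, stood at 30.7, 8.08 and 20.4 CPM against 0.132 to 0.509 CPM (6.21 ± 0.75), and Klf15 rose by 2.70 ± 0.44. Klf4, which drives early adipogenesis, was at 143, 243 and 155 CPM in adipocytes and 1304 to 1723 CPM in preadipocytes (-2.98 ± 0.33). Without adipocyte library 3, preadipocyte library 2 or the near-identical pair 5 were called lower. Of 36 adipogenic factors and repressors 8 were higher (22.2%, near the 18.5% of all genes) and 15 lower (41.7%, against 18.2%), with a median of -0.72. Zfp521, a repressor, fell by 3.34 ± 0.44, and Ebf2, which marks committed progenitors, from 106 to 211 CPM to 5.22, 15.3 and 5.50 CPM (-4.22 ± 0.51). The factors Pax5, of B cells, and Tbx21, of T and NK cells, were also lower (-5.36 ± 0.79 and -3.88 ± 1.35). Of the markers described at the end, those of B cells were lower. Summed T and NK cell markers overlapped between the groups, with 5 of 12 called lower. The call of Tbx21 (adjusted p = 0.0498) was lost without adipocyte library 1 or 3, preadipocyte library 2 or 4, or the near-identical pair.

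Progenitor identity and the fibrous matrix were the lower side of the comparison. Of 20 progenitor genes 16 were called lower and none higher (median -2.81). Pdgfra stood at 9.71, 42.8 and 20.7 CPM in adipocytes and at 373, 703, 373 and 817 CPM in preadipocyte libraries 1 to 4 (-4.66 ± 0.59). Dpp4 and Pi16, markers of the most primitive stromal progenitors, fell by 5.03 ± 0.37 and 4.09 ± 0.48, and no adipocyte library reached a preadipocyte library for any of the 3. Of 35 collagen genes 26 were lower and none higher (median -2.84), with Col14a1 at 22.1, 26.9 and 34.2 CPM against 703 to 1279 CPM (-5.11 ± 0.38). Of 33 interstitial matrix genes 28 were lower and 1 higher (median -3.30). Fbn1, fibrillin of the microfibrils, stood at 20.4, 98.3 and 108 CPM against 2059 to 3673 CPM (-5.30 ± 0.66), and versican, Vcan, fell by 5.11 ± 0.60. The 1 rise was Prelp, a leucine-rich proteoglycan, at 1579, 705 and 2086 CPM against 231 to 384 CPM (2.39 ± 0.45). The collagens called lower were 17 without preadipocyte library 2, and without adipocyte library 1 or 2, 2 interstitial matrix genes were called higher.

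Genes of the basement membrane, the sheet of matrix that surrounds each adipocyte, were lower more often than higher. Of 24 13 were lower and 1 higher (median -1.35), with the laminin chain Lama2 at 9.82, 45.9 and 38.8 CPM against 475 to 1026 CPM (-4.64 ± 0.61) and Col4a5 at -4.41 ± 0.37. Sparc, a matrix protein that binds collagen IV, was the 1 call higher (1.42 ± 0.45, adjusted p = 0.0367), and it was lost with upper quartile scaling, in limma on FPKM, and without adipocyte library 1 or 3, preadipocyte library 2 or 4, or the near-identical pair (adjusted p 0.0542 to 0.113). Of 28 integrin genes 11 were lower (39.3%, against 18.2% of all genes) and 3 higher (10.7%, against 18.5%). The collagen receptor Itga11 fell by 4.64 ± 0.37 and Itga2 by 3.47 ± 0.43, while the laminin receptor Itga7 rose from 9.02 to 23.4 CPM to 234, 232 and 366 CPM (4.11 ± 0.44). The integrins called lower were 7 without preadipocyte library 2.

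Ligands and receptors of the morphogen pathways were lower as well. Of 35 Wnt genes 18 were lower and 2 higher (median -1.77). The ligand Wnt10b, which blocks adipogenesis, stood at 0.337, 0.431 and 0.718 CPM against 14.3 to 24 CPM (-5.27 ± 0.48), and the antagonist Sfrp4 at 4.43, 4.25 and 9.17 CPM against 158 to 376 CPM (-5.29 ± 0.52). Its relative Sfrp5 had the opposite pattern, at 681, 180 and 620.3 CPM against 1.14 to 3.33 CPM, and the receptor Fzd4 was the other call higher (1.58 ± 0.30). Of 39 TGF-beta and BMP genes 22 were lower and 2 higher (median -1.27). The activin subunit Inhba fell by 6.05 ± 0.98 and the activin trap Fst by 4.29 ± 0.39. The receptor Acvr1c (ALK7), which binds activin-type ligands on adipocytes, rose from 0.704 to 1.68 CPM to 108, 87.1 and 73.0 CPM (6.22 ± 0.43). Of these 39, 13 were called lower without preadipocyte library 2, and without adipocyte library 2, 4 were called higher.

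Preadipocytes carry a primary cilium, the antenna of hedgehog signalling, and genes of that pathway leaned lower in adipocytes. Of 44 cilium and hedgehog genes 13 were lower (29.5%, against 18.2% of all genes) and 3 higher (6.82%, against 18.5%), with a median of -0.80. The lower genes named were on the hedgehog side: the effectors Gli1 (-4.36 ± 1.02) and Gli3 (-4.08 ± 0.67) and the coreceptors Gas1 (-3.58 ± 0.38) and Cdon (-3.39 ± 0.38). Gas1 stood at 15.2, 16.0 and 23.7 CPM against 165 to 322 CPM. Those higher included the transport genes Ift22 (1.68 ± 0.33) and Ift52 (1.61 ± 0.31). The list had 7 called lower without preadipocyte library 2. Of 39 stromal growth factor genes 20 were lower and 3 higher, with Fgf7 at -3.95 ± 0.60 and the binding protein Igfbp6 at -3.71 ± 0.44, while Vegfb, an endothelial and lipid-handling factor, rose from 13.6 to 17.6 CPM to 289.8, 69.1 and 161 CPM (3.59 ± 0.52). Of this list 12 were called lower without preadipocyte library 2.

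Per transcript length, the most abundant protein-coding transcripts differed in kind between the fractions. In adipocytes they were led by the carbonic anhydrase Car3 (5670 ± 3853 FPKM, SD, n = 3), Cfd (5668 ± 4078 FPKM) and Scd1 (4985 ± 1519 FPKM). In preadipocytes they were led by gelsolin, Gsn (6655 ± 1699 FPKM), followed by the elongation factor Eef1a1 (2210 FPKM) and C3 (1466 FPKM). Gsn was abundant in both, at 3019 ± 1685 FPKM in adipocytes. Its groups did not overlap in CPM, at 4354 to 13506 and 14943 to 24491, but its adjusted p was 0.0806 in edgeR, against 0.0331 in DESeq2 and 0.0497 in edgeR without adipocyte library 3.

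Genes often used as references were not level between the cell types. Of 21 such genes 9 were called higher (42.9%, against 18.5% of all genes) and none lower (against 18.2%), with a median of 0.72. Hprt, an enzyme of purine salvage, rose by 2.15 ± 0.37, Gapdh by 1.97 ± 0.29 and Actb by 1.32 ± 0.30, the last losing its call without preadipocyte library 2 (adjusted p = 0.0592). The counts were 9 higher with DESeq2-type size factors, 8 with upper quartile scaling and 8 in limma on FPKM, with none lower in these 3, and 9 higher with 1 lower in DESeq2. Without adipocyte library 2, 2 reference genes were called lower. Nono (0.00 ± 0.26), Rps18 (0.02 ± 0.30), Polr2a (0.03 ± 0.30) and Eef1a1 (0.17 ± 0.29) lay nearest to 0. Of genes with a mean of at least 50 FPKM, the narrowest interval around 0 was that of Pcbp1, an RNA-binding protein, at 180 to 216 CPM in adipocytes and 192 to 224 CPM in preadipocytes (95% interval of the log2 fold change -0.54 to 0.60). The next were the other flat genes Rpl3, Eif4g2, P4hb and Ctnnb1.

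Lists of immediate early, cell cycle and thermogenic genes were also compared. Genes of the immediate early and heat shock responses, known to react to tissue digestion, were called lower in 17 of 26 and higher in none (median -1.30), with Fosl2 at 176, 367 and 248 CPM against 989 to 1265 CPM (-2.05 ± 0.33). The number called lower was 11 without preadipocyte library 2. The part of tissue digestion in these values was not tested. Cell cycle genes were called higher in 2 of 30, Ube2c (1.73 ± 0.37) and Mcm7 (1.02 ± 0.33), and lower in none (median 0.53). That count depended on the library: 1 was called higher without adipocyte library 2 or 3 or on leaving out preadipocyte library 2, 4 or the pair, while 5 were called lower without adipocyte library 2, and with adipocyte libraries 1 and 3 both left out 22 were called higher. Thermogenic genes were higher in 7 of 14 and lower in none, led by Kcnk3, the droplet protein Cidea (5.94), the proton channel Otop1 (5.87 ± 0.54) and the cytochrome oxidase subunit Cox8b (34.4, 28.1 and 14.9 CPM against 0.399 to 1.03 CPM). Ucp1, added after its value was seen, averaged 17.0 and 1.65 CPM and was not called (3.37 ± 1.24, adjusted p = 0.0602), and without adipocyte library 2, 3 thermogenic genes were called lower.

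Defining markers of both labelled cell types were present in their own fraction. The summed level of 8 adipocyte markers was 38295, 12492 and 32781 CPM in adipocyte libraries 1 to 3 and 187 to 243 CPM in preadipocytes, and that of 8 preadipocyte markers was 821 to 1645 CPM and 9816 to 18740 CPM. All 8 of each list were called in that direction, and none was at 0 in a group. The 20 largest rises and falls were picked in these same control libraries, so their low levels in the other fraction follow from that choice. They do not measure the purity of a fraction. The 20 largest rises stood in preadipocyte libraries 1 to 4 at a median of 0.625%, 0.599%, 0.717% and 0.395% of their adipocyte mean, with 0.172% in the low-fat control preadipocyte library, and the 20 largest falls stood in adipocyte libraries 1 to 3 at 0.918%, 2.97% and 2.92% of their preadipocyte mean. Single genes ranged from 0% (Adamts16, library 1) to 5.29% (Islr2, library 3) in adipocytes. The part of carried-over RNA in these low values was not tested.

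**Figure D4:**
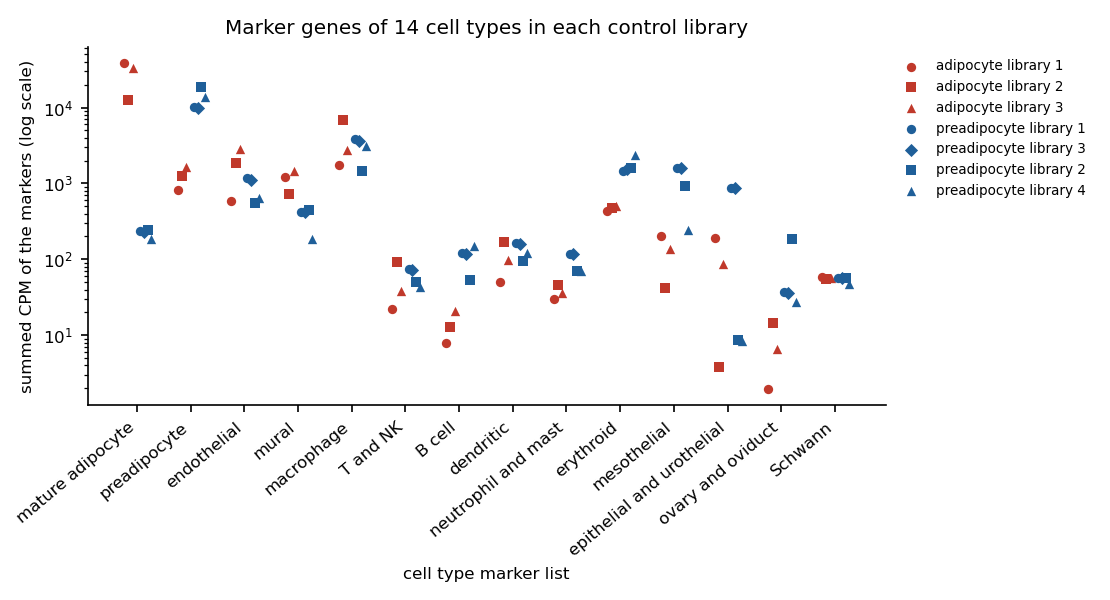
Summed CPM on a log scale of the marker genes of 14 cell types in each control library, with adipocyte libraries in red and preadipocyte libraries in blue. Adipocyte and preadipocyte markers part the groups widely, macrophage markers overlap (1768 to 6801 CPM against 1474 to 3814 CPM), and epithelial markers are high in preadipocyte libraries 1 and 3 and in adipocyte libraries 1 and 3 only.

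Markers of several other cell types also differed between the fractions. Their calls stand beside 18.5% higher and 18.2% lower over all genes tested. Mural cell markers summed to 725 to 1473 CPM in adipocytes and 185 to 453 CPM in preadipocytes (4 of 11 higher, none lower), and endothelial markers to 590.1 to 2884 CPM and 557 to 1168 CPM (5 of 14 higher, 1 lower), with Pecam1 at 65.3 to 388 CPM and 48.0 to 161 CPM (1.42 ± 0.64, adjusted p = 0.113). The factors Sox17 and Sox18, found in endothelium, were among 3 Sox genes called higher of 11, of which 6 were called lower (median -1.94). Leaving out preadipocyte library 2 gave 1 higher and 2 lower, preadipocyte library 4 0 and 3, and adipocyte library 2 1 and 3. The calls higher were 0 without adipocyte library 3, and the calls lower 3 without the near-identical pair. Both lost their calls without adipocyte library 3 or preadipocyte library 2 or 4, and Sox17 also without adipocyte library 2 (adjusted p 0.0689 to 0.103). B cell markers were lower, at 7.97 to 20.8 CPM against 52.8 to 148 CPM (5 of 8 called), as were erythroid markers, at 428 to 498 CPM against 1455 to 2366 CPM (5 of 5). The globin genes are near-identical copies between which reads may be shared. Mesothelial markers stood at 41.6 to 205 CPM against 244 to 1611 CPM (5 of 10 lower), T and NK cell markers at 22.4 to 93.5 CPM against 42.7 to 74.5 CPM (5 of 12 lower), and macrophage markers overlapped (1 of 12 higher). Dendritic cell markers stood at 50.8 to 171 CPM against 94.1 to 162 CPM (3 of 7 lower), neutrophil and mast cell markers at 30.1 to 46.1 CPM against 69.2 to 118 CPM (3 of 8 tested lower), and Schwann cell markers at 54.3 to 58.9 CPM against 47.9 to 57.5 CPM (1 of 5 tested lower). Epithelial and urothelial markers summed to 868 and 858 CPM in preadipocyte libraries 1 and 3 and 189 and 87.4 CPM in adipocyte libraries 1 and 3, against 3.82 to 8.75 CPM in the other 3 libraries, and none of 8 tested was called. Ovary and oviduct markers were highest in preadipocyte library 2, at 185 CPM against 1.96 to 36.8 CPM elsewhere (4 of 5 tested lower). In adipocytes Ncr1, Ly6g, Foxl2, Amh, Cyp19a1 and Fshr were at 0, and in preadipocytes Ly6g. The part of these cells in the gene lists above was not tested.

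The same comparison in stress-reared mice, which shares no sample with the control comparison, gave like fold changes. There 49.7% of 16489 genes were called, 4066 higher (24.7%) and 4135 lower (25.1%). Of the 3023 genes called higher in control mice 2974 were tested in stress-reared mice, 2966 had the same sign and 2710 (91.1%) were called higher. Of the 2975 called lower 2862 were tested, 2840 had the same sign and 2361 (82.5%) were called lower, and none was called in the opposite direction. Across 15772 genes the log2 fold changes had Pearson r = 0.879 and Spearman rho = 0.894, a description across genes that are not independent replicates. Of the genes of the largest change, Cfd stood at 8.11 in control and 8.36 in stress-reared mice, Adipoq at 7.52 and 6.98, Tph2 at 7.75 and 5.22, Has2 at -6.35 and -6.66 and Meg3 at -6.83 and -6.98.

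**Figure D5:**
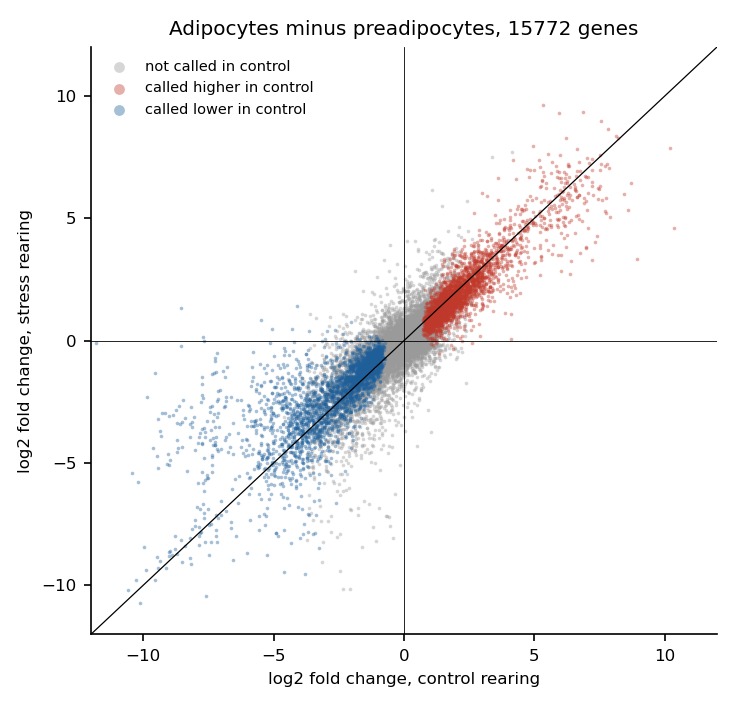
Log2 fold change of adipocytes over preadipocytes in stress-reared mice against that in control mice for 15772 genes tested in both, coloured by the call in control mice, with the line of equal folds. The points run along the line (Pearson r = 0.879), and no gene called in control mice was called in the opposite direction in stress-reared mice.

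A test of the difference between the rearings called no gene in edgeR: 0 of 17948. Unadjusted p-values were below 0.05 for 873 genes, and the lowest adjusted p was 0.934. DESeq2 called 3. Myh4, a myosin of fast skeletal muscle, stood at 33.3 to 37.9 CPM in control adipocytes and 0 to 0.0880 CPM in control preadipocytes, against 7.94 to 32.0 CPM and 0.105 to 1.69 CPM in stress-reared mice. The epithelial gene Prom2 stood at 37.8 and 42.4 CPM in control preadipocyte libraries 1 and 3 and at 0 and 0.396 CPM in libraries 2 and 4. In control adipocytes it stood at 0.269 to 14.6 CPM. In stress-reared mice Prom2 stood at 0 to 3.36 CPM in preadipocytes and had no count in adipocytes, so its fitted difference (20.02 on the log2 scale) rests on a group at 0. The immunoglobulin segment Igkv10-96 stood at 3.17 to 18.9 CPM in control preadipocytes, with no count in control adipocytes. In stress-reared mice it stood at 0.0445 to 0.804 CPM in preadipocytes and 0.0499 to 0.455 CPM in adipocytes. An edgeR call of 0 in this design does not show that the cell type difference was alike in both rearings.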

How the data were processed

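RNA of sorted cells was sequenced, and the authors deposited a table of raw read counts and a separate table of FPKM values (scaled by gene length and library size), with 54532 genes in each library, per the file headers. Per the submitters' processing notes, STAR 2.6.1d, DESeq2 1.20.0, edgeR 3.24.3 and the mouse build mm10 (GRCm38) were used. The sources used here name neither the read counter nor its handling of strand, nor an annotation version, so paralogs and overlapping or antisense genes may share reads. GENCODE M21 names matched 54409 of the gene IDs.

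Counts were tested with edgeR 4.0.16 in R 4.3.3 (TMM scaling, filterByExpr, robust quasi-likelihood test, Benjamini-Hochberg adjustment over all genes tested, threshold 0.05), in the 3 adipocyte and 4 preadipocyte control libraries of the high-fat diet, with the near-identical preadipocyte libraries 1 and 3 summed. CPM used 1 TMM scaling over all 16 libraries, and a mean ± SD takes that pair's mean as 1 sample. The design had no replicate block. Alternatives were other scalings and filters, the pair kept apart, DESeq2 1.42.0, limma 3.58.1 on log2(FPKM + 1), a spread shared over 4 groups, a replicate block, and leaving out libraries. The block used only libraries 1 to 3 of each group, with the control pair kept apart. On simulated data of 15624 genes for this comparison, 81 of 100 genes changed 8-fold and 6 of 100 changed 2-fold were recovered, with 3 false calls. No other genes were changed, a far smaller share than the 36.8% called in the data. That makes the adjusted threshold stricter, so these recovery rates do not carry over to the comparison.

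The comparison, the gene lists and the marker lists were chosen with earlier results of these data known, so lists carry no set test. Genes named were the 20 largest rises and falls (called, groups apart, at least 50 CPM in the higher group, no provisional names), the 10 most abundant protein-coding genes per group by FPKM, up to 4 called members per list in its main direction and 3 in the other (at least 1 FPKM), anchor and reference genes, the 5 long non-coding RNAs each way, and the 5 flattest genes of at least 50 FPKM. Others are marked as named after their values were seen. Where a group had no count, the bound uses a floor of 3 counts over the group. Promoter sequences are from RefSeq, GRCm38.p6. Values of some list members are not reported here.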

Additional observations from a re-analysis of the deposited data

Results flagged for a closer look

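The difference between adipocytes and preadipocytes was tested for a dependence on rearing, and DESeq2 called 3 genes: Prom2 (adjusted p = 0.00409), Igkv10-96 (adjusted p = 0.00863) and Myh4 (adjusted p = 0.0371). In edgeR each had an adjusted p of 0.934. Prom2 was high in the near-identical preadipocyte libraries 1 and 3 of control mice, at 37.8 and 42.4 CPM, and at 14.6 CPM in adipocyte library 1, beside the high epithelial markers of the same libraries. Igkv10-96 had no count in control adipocytes, and Prom2 had none in stress-reared adipocytes. Whether other cell types had a part in these differences was not tested.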

How the results depend on the processing

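The counts of genes called depended on which libraries were in the fit. Leaving out 1 library or the near-identical pair at a time gave 1804 to 3397 genes higher, 1442 to 4540 lower and 3246 to 7421 called at 2-fold or more, against 3023, 2975 and 5618. The 4540 lower were those without adipocyte library 2. Without preadipocyte library 2 the 3 counts were 1804, 1442 and 3246, and without preadipocyte library 4 they were 1902, 1776 and 3678. Of the calls made without preadipocyte library 2, 3204 of 3246 were shared with the full fit in the same direction, and 3589 of 3678 without preadipocyte library 4. The cause was not tested. The other scalings, filters and tools run gave 2770 to 3832 higher and 2779 to 4404 lower. Upper quartile factors moved the median over all genes from -0.17 to -0.28. The median of a list of actin and YAP/TAZ target genes was 0.13 and turned to -0.01 in limma on FPKM. None of the 281 named genes reversed. The difference between rearings was called for 3 genes by DESeq2 against 0 in edgeR.

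The labels do not say that a replicate number marks shared animals, so the numbers were not taken to pair the samples. Correlations of deviations between same-numbered libraries were 0.00838, -0.0417 and -0.0289 in control and -0.226, 0.206 and -0.0206 in stress-reared mice. Different-numbered pairs gave -0.0414 to 0.0455 in control and -0.208 to 0.245 in stress-reared mice. In control mice this check cannot decide on pairing, since preadipocyte libraries 1 and 3 are near-identical. Epithelial markers were high in libraries 1 and 3 of both control fractions and low in library 2 of both. A replicate block was fitted on libraries 1 to 3 of each fraction, with preadipocyte library 4 left out and the near-identical pair kept apart. It gave 2529 genes higher and 2803 lower, and 5231 called at 2-fold or more. Since the samples differ too, these counts do not show the effect of the block alone. In stress-reared mice the block, also without preadipocyte library 4, gave 6330 calls against 8201. Without that library and without a block 7410 were called. On simulated data with 3 samples a group and far fewer changed genes than were called here, 2-fold changes were seldom recovered (6 of 100). That rate does not carry over to this comparison.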

Other observations

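Calls among families of developmental regulators stood beside 18.5% higher and 18.2% lower over all genes. Of 30 Hox genes tested 3 were higher (10%) and 4 lower (13.3%), of 24 Fox genes none higher and 8 lower (33.3%), and of 7 Tbx genes none higher and 3 lower (42.9%). The calls lower of these 3 families were 1, 0 and 0 without preadipocyte library 2 and 1, 0 and 1 without preadipocyte library 4. Without the near-identical pair 1 Fox gene and 1 Tbx gene were lower, and 4 and 3 Fox genes were lower without adipocyte libraries 1 and 3 in turn. Without adipocyte library 2, 5 Hox genes and 1 Fox gene were called higher. By factor family, C2H2 zinc fingers had 10 higher and 88 lower of 445, bHLH factors 5 and 17 of 60, bZIP factors 3 and 17 of 45, ETS factors 0 and 8 of 22, and ARID factors 0 and 9 of 13. Adhesion and orphan receptors had 8 higher and 13 lower of 61. Without adipocyte library 2, 22 of these receptors were called lower, and without preadipocyte library 2 or 4, 4 were called higher. The list of actin and YAP/TAZ target genes had 3 higher and 5 lower of 30. It had 1 and 1 without preadipocyte library 4 and 1 and 3 without adipocyte library 3, and 3 lower without preadipocyte library 2 or the near-identical pair.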
